A study of Bos taurus with 12 samples.

Results

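The genes of myoblast fusion and adhesion described here are 9 of the 18436 genes in the expression table: myomaker (MYMK) and myomixer (MYMX), the junctional adhesion molecules JAM2 and JAM3, the cadherins CDH15 and CDH2, and the immunoglobulin superfamily receptors CDON, BOC and NEO1. They were chosen by name, for their known part in the contact and fusion of muscle cells, with earlier results of these data known. All 9 were found in the table. The study compared primary myoblasts from the longissimus dorsi muscle of newborn Qinchuan cattle in 2 states. GM were proliferating myoblasts harvested at 80% confluence in a growth medium with fetal bovine serum, and DM were myotubes harvested at 100% confluence after 4 days in a differentiation medium with horse serum, with penicillin and streptomycin in both media. Confluence and medium thus differ together between the groups, and their parts in contact and adhesion genes cannot be told apart. Each group had 3 input libraries of poly(A) RNA and 3 libraries immunoprecipitated (IP) with an antibody to N6-methyladenosine (m6A), 12 libraries in all. The study's methods name a single newborn animal as the source of the cells, and its text calls the 3 libraries of a group biological repeats. Neither it nor the labels say whether they came from separate cultures, so p-values here measure only the spread between these libraries, which may be technical.

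Vertebrate muscle fibres form when myoblasts leave the cell cycle, adhere to one another and merge their membranes. Cadherins, JAM proteins and the paired receptors CDON and BOC bring the membranes of neighbouring cells together and signal from the contact. MYMK then acts in the mixing of the outer membrane leaflets and MYMX in the opening of the fusion pore. m6A is a methyl mark on adenosines inside mRNA that is read by binding proteins, and it is known to lie mostly near stop codons and in 3′UTRs.

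Levels are given as FPKM, fragment counts that the authors scaled to gene length and library size, so levels of genes of different length can be set side by side. Differences between groups are log2 fold changes of DM over GM on the scale of log2(FPKM + 1), tested with limma over the 12302 genes whose mean reached 0.5 FPKM, and adjusted by Benjamini-Hochberg over all of them. A gene is said to have risen or fallen where the adjusted p was under 0.05, and is said to have been called where it also differed by more than 1.5-fold. FPKM summed to between 415740 and 434458 in the GM libraries and to between 386436 and 390827 in the DM libraries. Of the 10 skeletal muscle markers, all 10 were in the table, and their FPKM summed to between 1119 and 1196 in GM and to between 1591 and 1665 in DM. Satellite cell and myoblast factors were called lower in DM (PAX7, MYF5, MYOD1) and genes of the contractile apparatus and its energy supply were called higher (MYH3, TNNT1, MYL1, CKM), whereas skeletal actin (ACTA1) was called lower. PAX7 had means of 1.08 FPKM in GM and 0.0624 FPKM in DM, so it reached 0.5 FPKM only through its GM values. The libraries labelled as myoblasts held 190 to 207 FPKM of MYOG, a transcription factor of differentiating muscle cells, against 226 to 253 FPKM in DM, and their MYH3, an embryonic myosin, had a mean of 273 FPKM against 659 FPKM in DM. Fibroblast markers were high in both groups, with sums of 16067 to 16217 FPKM in GM and 16961 to 18070 FPKM in DM over 8 genes, most of it from the 3 collagens among them.

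Across the 9 genes, BOC and JAM2 were called higher in DM and CDON was called lower. JAM3 and NEO1 also rose and CDH15 also fell, each by less than 1.5-fold, and MYMK, MYMX and CDH2 did not pass the test. All 9 passed the filter on low values. The 4 genes that rose compare with 16.1% of all tested genes that did so, and the 2 that fell compare with 26.7%. The 2 genes called higher and the 1 called lower compare with 4.89% and 6.88% of tested genes. In 6 of the 9 genes the GM and DM libraries did not overlap, and the same held for 54.1% of tested genes. The median log2 fold change was 0.17 over the 9 genes and −0.05 over all tested genes. These are bulk libraries, in which fewer cells of a type and less RNA per cell cannot be told apart.

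**Figure D1:**
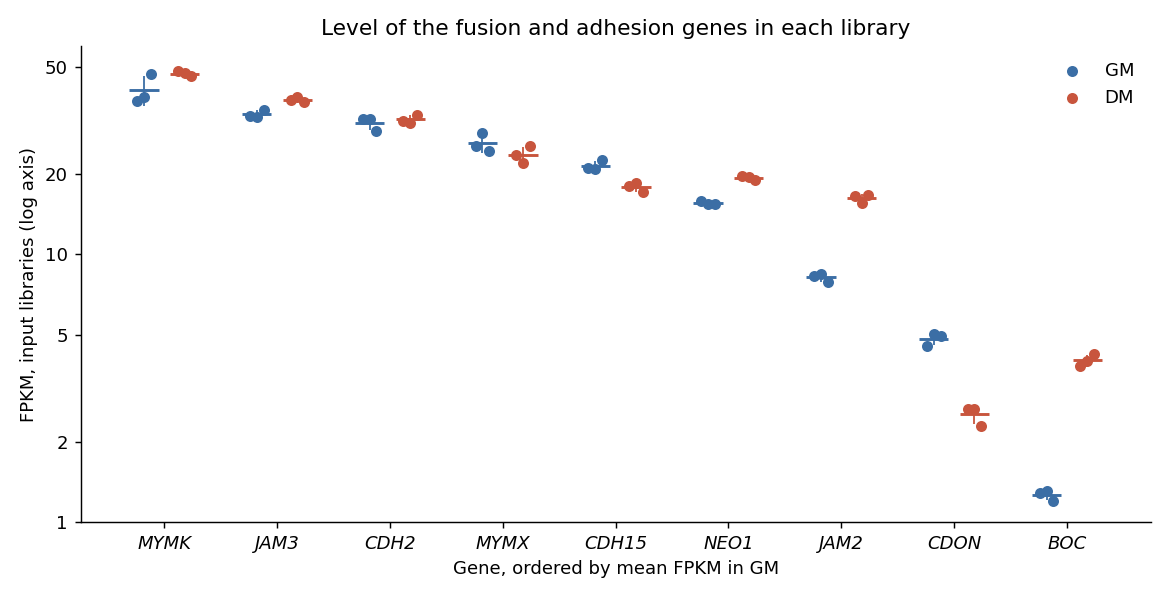
FPKM (log axis) of the 9 genes in each of the 3 GM (blue) and 3 DM (red) input libraries, with the mean as a horizontal bar and the SD as a vertical line. BOC, JAM2 and CDON stand clear of the other genes in the distance between the groups, and the order of BOC and CDON turns between GM and DM.

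The membrane proteins that carry out fusion itself, MYMK and MYMX, were both at high levels in the GM libraries as well as in DM. MYMK (ENSBTAG00000013242, chr11:104400006-104408077 of ARS-UCD1.2, minus strand), a membrane protein specific to muscle, had 37.5, 38.6 and 47.2 FPKM in the GM libraries and 48.2, 47.5 and 46.1 FPKM in the DM libraries. GM replicate 3 was apart from the other two GM libraries and lay within the range of DM, so the groups overlapped. The means were 41.1 ± 5.28 FPKM in GM and 47.3 ± 1.05 FPKM in DM (SD, n = 3), and the log2 fold change was 0.21 (SE 0.084, 95% interval 0.01 to 0.40, limma adjusted p = 0.083). The study also measured MYMK by RT-qPCR relative to GAPDH, a different measure from FPKM, and reported a gradual increase over differentiation. MYMK was the most abundant of the 9 genes in both groups. Within a library it was above 91.4% of the genes in the table on average in GM and above 93.3% on average in DM. Without GM replicate 3 the log2 fold change was 0.31 and passed the test (limma adjusted p = 0.0011), and it passed too with FPKM rescaled to TPM, so that each library sums to the same total (0.33, limma adjusted p = 0.0092), and with median-ratio size factors (0.27, limma adjusted p = 0.043). GM replicate 3 was also the highest GM library for caveolin 3 (CAV3, a coat protein of muscle membranes) and for galectin 1 (LGALS1), which were looked up after the values of MYMK were seen. CAV3 had 40.8, 39.4 and 53.4 FPKM in GM and 64.9, 60.1 and 64.4 FPKM in DM. For LGALS1, GM replicate 3 lay farther from DM than the other GM libraries did. GM replicate 3 was the lowest GM library for MYMX, CDH2 and the muscle membrane protein TMEM182.

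MYMX (ENSBTAG00000049369, chr23:17726770-17727024, plus strand), a short membrane peptide, had 25.4, 28.3 and 24.3 FPKM in GM and 23.4, 21.9 and 25.3 FPKM in DM. The groups overlapped. The log2 fold change of −0.14 (SE 0.074, 95% interval −0.31 to 0.03) did not pass the test (limma adjusted p = 0.18), and it stayed negative and short of the test in each of the 13 alternative settings, between −0.19 and −0.02. Its gene model is 255 bases of 1 exon, with no UTR, so reads from any longer transcript would fall outside the counted region. MYMK exceeded MYMX 1.59 ± 0.305-fold in GM and 2.02 ± 0.176-fold in DM (SD of the within-library ratio, n = 3), and these ratios overlapped between the groups.

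The junctional adhesion molecules are immunoglobulin-domain proteins of the cell surface that bind each other across cell contacts. JAM2 (ENSBTAG00000000603, chr1:10702387-10787934, minus strand) had 8.31, 8.44 and 7.86 FPKM in GM and 16.6, 15.6 and 16.6 FPKM in DM. Every DM library was well above every GM library. The mean went from 8.20 ± 0.305 to 16.3 ± 0.595 FPKM (SD, n = 3), a ratio of 1.98, and the log2 fold change of 0.91 (SE 0.056, 95% interval 0.78 to 1.04) was called (limma adjusted p = 7.6e-06). JAM2 is also a protein of endothelial contacts. Of the 6 endothelial markers 4 were in the table, PECAM1 and CDH5 among them, each under 0.5 FPKM in every library, and they summed to between 0.331 and 0.497 FPKM in GM and between 0.415 and 0.653 FPKM in DM.

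JAM3 (ENSBTAG00000003176, chr29:32993975-33024632, minus strand), the binding partner of JAM2, had 32.9, 32.7 and 34.7 FPKM in GM and 37.6, 38.6 and 37.1 FPKM in DM. The groups did not overlap, but the distance was small, with a ratio of means of 1.13. The log2 fold change was 0.17 (SE 0.048, 95% interval 0.06 to 0.28, limma adjusted p = 0.022). It did not pass the test when any 1 library other than GM replicate 3 was left out (limma adjusted p = 0.050 to 0.076 for the removal of GM replicate 1 or 2 or of any DM replicate), nor with the replicate number as a block (limma adjusted p = 0.080). JAM3 remained the more abundant of the pair: JAM2 stood at 0.246 ± 0.0170 of JAM3 in GM and at 0.431 ± 0.0239 in DM (SD, n = 3), and the 3 libraries of each group did not overlap.

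Among the cadherins, which hold cells together in the presence of calcium, the differences were small. CDH15 (ENSBTAG00000011530, chr18:14257853-14277025, plus strand), also called M-cadherin and characteristic of satellite cells and myoblasts, had 21.1, 20.9 and 22.4 FPKM in GM and 18.1, 18.4 and 17.1 FPKM in DM. All DM libraries were below all GM libraries. The log2 fold change was −0.25 (SE 0.055, 95% interval −0.38 to −0.13, limma adjusted p = 0.0068), and it kept its sign but did not pass the test after rescaling to TPM (−0.14, limma adjusted p = 0.082). CDH2 (ENSBTAG00000021190, chr24:28655047-28904115, plus strand), or N-cadherin, had 32.1, 32.1 and 29.0 FPKM in GM and 31.6, 31.0 and 33.2 FPKM in DM. The groups overlapped, and a log2 fold change of 0.04 (SE 0.059, 95% interval −0.09 to 0.18) did not pass the test (limma adjusted p = 0.62). Its sign turned without GM replicate 3 (−0.0077, limma adjusted p = 0.91).

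CDON, BOC and NEO1 form a family of receptors with immunoglobulin and fibronectin repeats. CDON and BOC bind each other and cadherins at the surface of myoblasts and also bind hedgehog ligands, while NEO1, or neogenin, binds netrins and repulsive guidance molecules. CDON (ENSBTAG00000009315, chr29:29322677-29419487, minus strand) had 4.54, 5.04 and 4.97 FPKM in GM and 2.65, 2.65 and 2.29 FPKM in DM. The groups were far apart, and the GM mean of 4.85 ± 0.271 FPKM was 1.92 times the DM mean of 2.53 ± 0.210 FPKM (SD, n = 3). The log2 fold change of −0.73 (SE 0.074, 95% interval −0.90 to −0.56) was called (limma adjusted p = 0.00012).

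BOC (ENSBTAG00000013909, chr1:57945013-58023212, plus strand) went the other way, with 1.29, 1.31 and 1.204 FPKM in GM and 3.83, 3.99 and 4.24 FPKM in DM. The lowest DM library was well above the highest GM library. BOC had the largest fold change of the 9 genes, 3.18 times in the means (1.27 ± 0.0544 to 4.02 ± 0.208 FPKM, SD, n = 3), with a log2 fold change of 1.15 (SE 0.068, 95% interval 0.99 to 1.30, limma adjusted p = 6.3e-06). CDON and BOC were each called, in their own directions, in all 6 fits that left out 1 library. A change of at least 2-fold on the log2(FPKM + 1) scale was met by BOC alone of the 9 genes.

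The 2 partner receptors thus changed places. The ratio of BOC to CDON was 0.283, 0.259 and 0.242 in the GM libraries and 1.44, 1.504 and 1.85 in the DM libraries, below 1 in each GM library and above 1 in each DM library. The sum of both was 6.12 ± 0.265 FPKM in GM and 6.55 ± 0.0806 FPKM in DM (SD, n = 3). These ratios and sums were formed after the levels were seen and are given as a description. NEO1 (ENSBTAG00000004990, chr10:19888399-20126828, plus strand), the most abundant of the family, had 15.8, 15.4 and 15.4 FPKM in GM and 19.7, 19.4 and 18.9 FPKM in DM. The groups did not overlap and each varied little. The log2 fold change was 0.30 (SE 0.048, 95% interval 0.19 to 0.41, limma adjusted p = 0.0015), a ratio of means of 1.24.

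**Figure D2:**
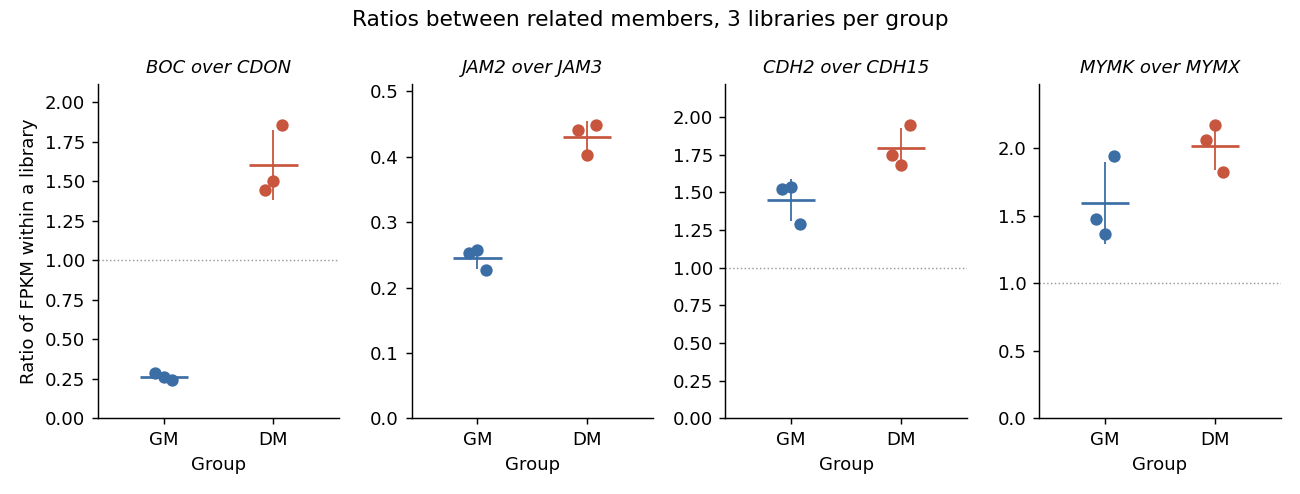
Ratio of FPKM between related genes within each of the 3 GM (blue) and 3 DM (red) input libraries, with the mean as a bar, the SD as a line and a dotted line at a ratio of 1 where it is in range. BOC over CDON lies between 0.242 and 0.283 in GM and between 1.44 and 1.85 in DM, whereas MYMK over MYMX overlaps between the groups.

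The order by mean FPKM was MYMK, JAM3, CDH2, MYMX, CDH15, NEO1, JAM2, CDON and BOC in GM, and MYMK, JAM3, CDH2, MYMX, NEO1, CDH15, JAM2, BOC and CDON in DM. In both groups the ranges of neighbours in that order did not overlap, so the exchange of BOC with CDON and of NEO1 with CDH15 was larger than the spread between libraries. The narrowest gap in GM was between JAM3 and CDH2, where the lowest JAM3 library had 32.7 FPKM and the highest CDH2 library 32.1 FPKM. In DM CDH15 and JAM2 lay close, with 17.1 FPKM in the lowest library of CDH15 and 16.6 FPKM in the highest of JAM2. Rescaling to TPM divides all genes of a library by the same number, so it could not change this order and is no test of it.

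Over the 6 libraries, the genes with the most similar pattern were found by the root mean square distance of log2(FPKM + 1), centred per gene. Nearest to BOC were EMP1 (0.0321), PVR (0.0361) and CHRD (0.0406), and nearest to JAM2 were DRAM1 (0.0309), COL12A1 (0.0387) and GPNMB (0.0399). Their levels differed widely, since COL12A1 went from 845 to 1659 FPKM while CHRD went from 2.30 to 6.17 FPKM. Nearest to CDON were UBA7 (0.0305), PHKG1 (0.0411) and RASSF4 (0.0417). MYMK lay nearest to TOLLIP (0.0274), MYMX to TMOD1 (0.0249), JAM3 to VPS26C (0.0109), CDH2 to RAB28 (0.0111) and NEO1 to PAQR4 (0.0149).

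Around these 9 genes, 95 further genes of fusion and adhesion were listed by pathway, of which 92 were in the table and 72 were tested. Of the 72, 24 rose and 19 fell, 8 were called higher and 3 lower, and the median log2 fold change was 0.03. As shares of the tested genes these compare with the 16.1%, 26.7%, 4.89% and 6.88% of all tested genes given above, and after rescaling to TPM 12 were called higher and 1 lower. Among 30 tested genes of the fusion machinery, which act on membranes and the actin cytoskeleton, 10 rose and 6 fell, with a median of 0.04, and 6 rose when DM replicate 1 or DM replicate 3 was left out. TMEM182, a muscle membrane protein known to restrain fusion, moved most: it had 1.41, 1.08 and 0.610 FPKM in GM and 13.4, 14.0 and 12.9 FPKM in DM (log2 fold change 2.85, SE 0.13, limma adjusted p = 1.8e-06). The tetraspanin CD9, an organiser of membrane contacts, had 69.3, 71.7 and 66.4 FPKM in GM and 145, 167 and 157 FPKM in DM (1.16, limma adjusted p = 3.4e-06). WIPF1, which binds the actin regulator WASP, was also called higher (0.65). The lectin LGALS1 was called lower, with 1609, 1550 and 2280 FPKM in GM and 1146, 1281 and 1104 FPKM in DM (−0.60, limma adjusted p = 0.0094), but was not called without GM replicate 3, without DM replicate 3, after rescaling to TPM or with size factors.

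Other cadherins and their catenins rose more often than they fell, with 6 of 9 tested genes higher and 1 lower, and a median of 0.18. Over all tested genes, to be set beside each list in this paragraph, 16.1% rose, 26.7% fell and the median was −0.05. CDH6, 1 of the 6, passed the filter only through its DM values, with means of 0.454 FPKM in GM and 0.933 FPKM in DM. With the replicate block, and without GM replicate 1 or DM replicate 1, 4 of the 9 rose. CDH11, the cadherin of mesenchymal cells, went from 182 ± 2.09 to 377 ± 11.2 FPKM (1.05, limma adjusted p = 1.3e-06), above both CDH15 and CDH2 in each group. CTNNB1, or beta-catenin, which links cadherins to the cytoskeleton, was called higher (0.77), as was CDH1 (0.73), the epithelial cadherin. Of the polarity proteins and relatives that bind JAM proteins, 4 of 6 tested genes rose, 1 fell and none was called, with a median of 0.23. The 1 that fell did not pass after rescaling to TPM, without GM replicate 1 or without DM replicate 2. Without GM replicate 3, DM replicate 1, DM replicate 2 or DM replicate 3, 3 of the 6 rose. Of 4 tested immunoglobulin adhesion molecules, 1 rose and 3 fell, and ALCAM was called lower (−0.69). After rescaling to TPM 1 fell and ALCAM was not called, and 2 fell with size factors, with the replicate block and without GM replicate 1, GM replicate 2, DM replicate 2 or DM replicate 3.

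Downstream of CDON, 2 of 7 tested genes of the route to p38 fell and none rose. This share that fell was near that of all tested genes, of which 26.7% fell and 16.1% rose. The median of −0.06 turned to 0.06 after rescaling to TPM, when 1 rose and none fell, and to 0.05 without DM replicate 2. Of 9 tested hedgehog pathway genes, 4 fell and none rose, with a median of −0.24, where 26.7% of all tested genes fell. The 4, named here after their values were seen, were the signal transducer SMO (−0.50), the transcription factors GLI1 (−0.37) and GLI2 (−0.32), and DISP1 (−0.24), which releases the ligand. GLI1 had means of 0.710 FPKM in GM and 0.318 FPKM in DM, so it passed the filter only through its GM values. The other 5 did not pass the test, PTCH1 (−0.10, limma adjusted p = 0.3) among them. The ligands IHH and DHH were under 0.5 FPKM in every library, and 2 rather than 4 of the pathway genes fell after rescaling to TPM, with the replicate block and without GM replicate 1, GM replicate 3, DM replicate 1 or DM replicate 3. Among 7 tested genes for neogenin ligands, netrins and netrin receptors, 3 rose and 2 fell, and 1 of the 2 was the receptor UNC5B (−0.28). The neogenin ligands differed from one another: HJV (0.70) and RGMA (0.64) were called higher, and RGMB, the most abundant of them, was called lower (−0.62), from 48.9 ± 6.14 to 31.3 ± 2.90 FPKM. RGMA had means of 0.402 FPKM in GM and 1.18 FPKM in DM, so it passed the filter only through its DM values. RGMA was not called with the filter at a mean of 1 FPKM or without DM replicate 2. RGMB was not called without GM replicate 3, without DM replicate 1, after rescaling to TPM or with size factors.

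**Figure D3:**
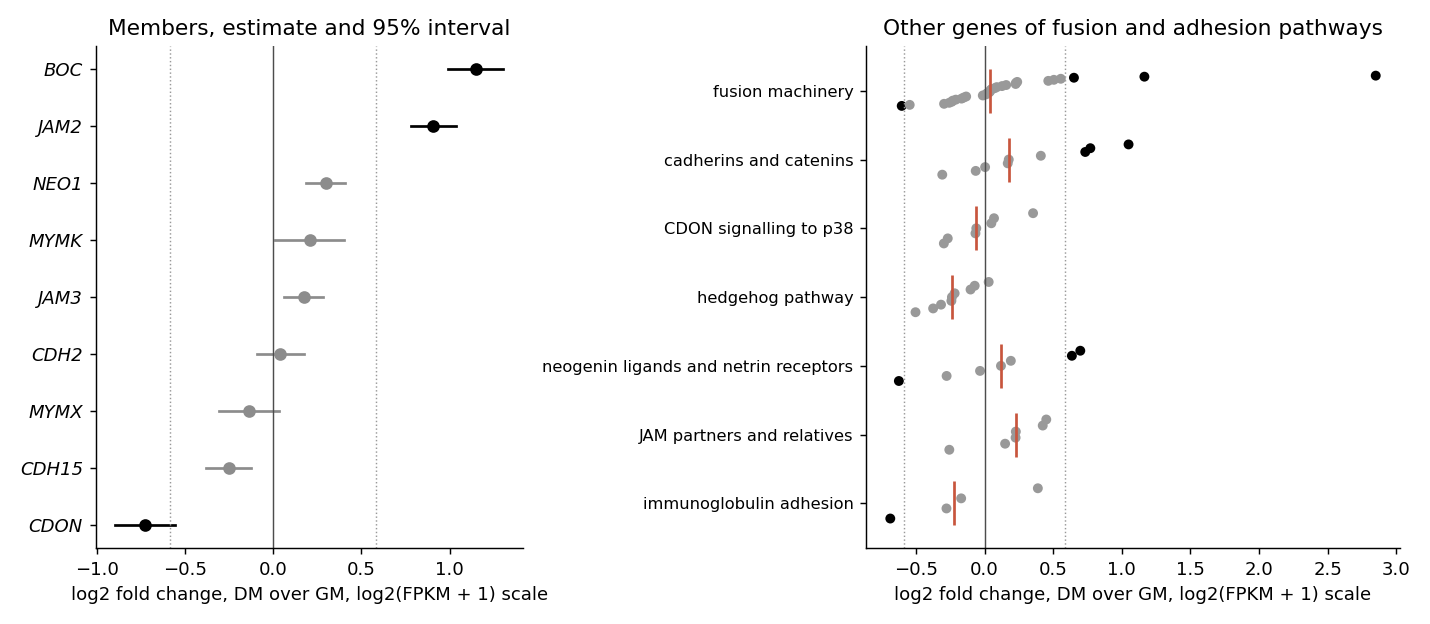
Left, log2 fold change of DM over GM with its 95% interval for the 9 genes; right, log2 fold changes of the tested genes of 7 pathway lists, with red bars at the list medians. Black points were called, grey points were not, and dotted lines mark 1.5-fold; BOC at 1.15 and CDON at −0.73 are the ends among the 9 genes, and TMEM182 at 2.85 is the highest point on the right.

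Some markers of other cell types were also higher in DM, and others were not. Of 4 pericyte markers 3 were in the table, and their sum went from between 3.49 and 3.79 FPKM in GM to between 7.60 and 7.68 FPKM in DM. Most of that sum came from CSPG4. Of 8 fibroblast markers 4 rose, none fell and FAP was called higher, where 16.1% of all tested genes rose. Leukocyte markers (2 of 4 in the table) and Schwann cell markers (2 of 4) were under 0.5 FPKM in every library. The leukocyte sum was 0.200 to 0.330 FPKM in GM and 0.0710 to 0.159 FPKM in DM. The Schwann cell sum was 0.0233 to 0.0390 FPKM in GM and 0.0118 to 0.0180 FPKM in DM. The 4 adipocyte markers summed to between 1.12 and 1.21 FPKM in GM and between 1.27 and 1.81 FPKM in DM. Of these only PLIN1 was tested and it did not pass, and FABP4 went from a mean of 0.106 to 0.578 FPKM. The part of such cells in the results on BOC and JAM2 was not tested.

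In the m6A data, every one of the 9 genes carried at least 1 peak in both groups, where the share of tested genes with any peak was 70.9% for GM and 78.7% for DM. The peaks are regions enriched in IP over input, called by the authors with exomePeak on the pooled libraries of a group, so that each peak has 1 fold enrichment per group with no error and no test between groups. The 9 genes held 15 peaks in GM, 9 of them annotated to a 3′UTR, 2 to a 5′UTR and 4 to an exon. In DM they held 14 peaks, 7, 2 and 5 in the same classes. Over all peaks, 42.6% of the GM list and 45.3% of the DM list were annotated to a 3′UTR. Their median fold enrichment was 3.31 in GM and 3.01 in DM, against 3.27 and 3.38 over all peaks of the GM and DM lists.

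**Figure D4:**
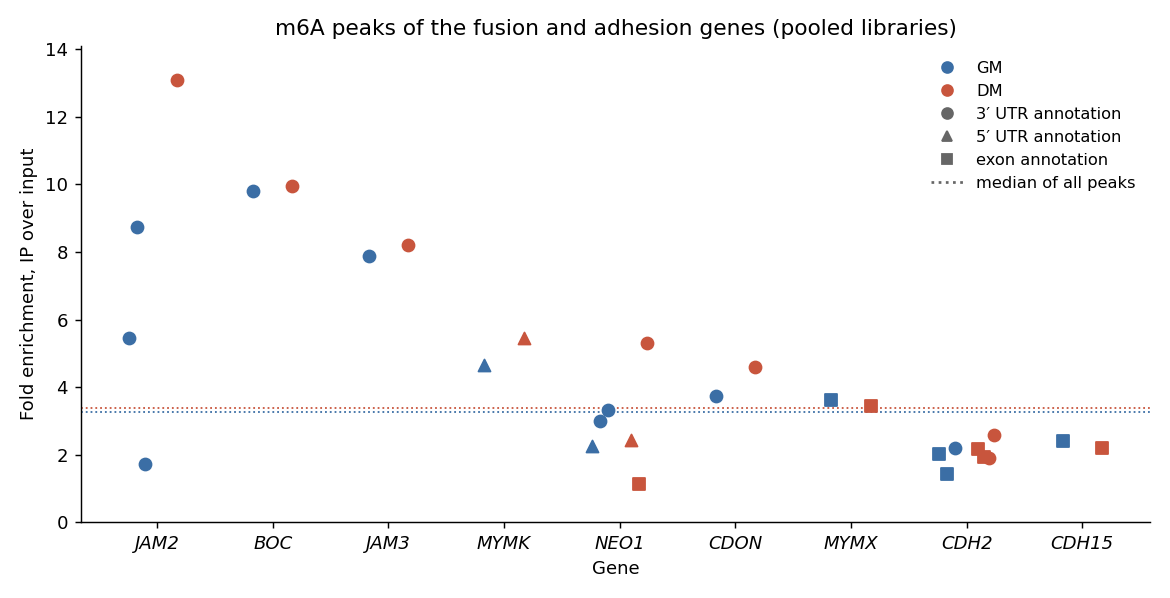
Fold enrichment of IP over input of each m6A peak of the 9 genes in the pooled GM (blue) and DM (red) lists, with symbols for the annotated region and dotted lines at the median of all peaks of each list. JAM2, BOC and JAM3 hold the highest peaks, up to 13.1, and CDH2 and CDH15 stay under 3 in both groups.

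The highest enrichment was in the 3′UTRs of JAM2, BOC and JAM3. In JAM2 the GM list had 3 separate 3′UTR peaks, of 240, 629 and 90 bases, with fold enrichments of 5.44, 8.74 and 1.73. The last of them was weak, with a log10 false discovery rate of −1.30. In DM a single peak of 1704 bases (chr1:10702387-10704090) with a fold enrichment of 13.1 covered all 3 and reached the annotated gene end, so no pair of 1 GM and 1 DM peak could be formed. This was higher than 95.6% of DM peaks, and 2.64% of DM peaks overlapped 3 or more GM peaks. The RNA of JAM2 was 1.98 times as high in DM, and the part of that in the called extent of the peak was not tested.

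BOC had 1 3′UTR peak per group with nearly the same height, 9.80 in GM and 9.96 in DM, higher than 92.0% of GM peaks and 91.8% of DM peaks. The extent differed. The GM peak covered 1948 bases up to the gene end (chr1:58021265-58023212), while the DM peak covered 780 bases that ended 1318 bases before it (chr1:58021115-58021894), and 630 bases were common to both. Those were 32.3% of the GM peak and 80.8% of the DM peak, for an RNA that was 3.18 times as high in DM. JAM3 had a 3′UTR peak of 1259 bases and a fold enrichment of 7.88 in GM, and of 1050 bases and 8.22 in DM, both ending at the gene end.

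**Figure D5:**
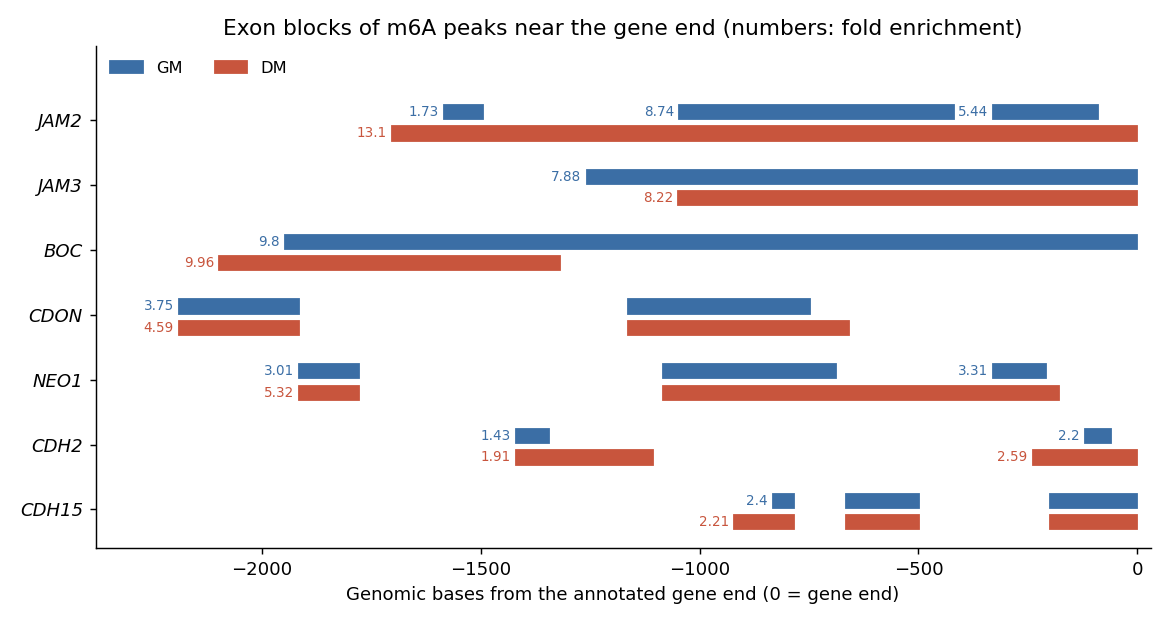
Exon blocks of the GM (blue) and DM (red) m6A peaks near the annotated gene end (0 on the x axis, in genomic bases) for 7 genes, each peak with its fold enrichment; blocks farther from the end are outside the plot. In JAM2 3 GM peaks lie under 1 DM peak, and in BOC the DM peak stops 1318 bases before the gene end.

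In CDON a peak of 3 exon blocks in and before the 3′UTR had a fold enrichment of 3.75 in GM and 4.59 in DM, while its RNA was lower in DM. NEO1 had a 5′UTR peak (2.25 in GM, 2.43 in DM) and, toward its 3′ end, GM peaks of 3.01 and 3.31 that were both overlapped by 1 DM peak of 5.32. A further DM peak of 60 bases in exon 3 of 29 was barely enriched (1.14, log10 false discovery rate −1.33) and had no GM partner. By the highest peak of each gene, the cadherins had the lowest enrichment of the 9 genes. CDH15 had 1 peak from exon 12 of 14 to the gene end, at 2.40 in GM and 2.21 in DM. CDH2 had 3 GM peaks between 1.43 and 2.20 and 4 DM peaks between 1.91 and 2.59, of which the first, in exon 1, had no GM partner.

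The peaks of the fusion proteins covered their whole genes. The MYMK peak ran over all 5 exon blocks, 1291 bases from gene start to gene end, in both lists, with a fold enrichment of 4.65 in GM and 5.45 in DM. Its annotation as 5′UTR therefore gives no position within the transcript. The MYMX peak covered all 255 bases, at 3.61 in GM and 3.43 in DM. Peaks that spanned a gene from end to end were 1.40% of the GM list and 2.80% of the DM list.

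Pairs of exactly 1 GM and 1 DM peak numbered 10, in 8 of the 9 genes. Of these 10 pairs none differed by more than 1.5-fold in either direction, whereas over all such pairs 14.2% were higher in DM and 10.8% lower. The pairs leave out JAM2 and the 3′ peaks of NEO1, where 1 DM peak overlapped several GM peaks. When 50% of each peak had to be shared, NEO1 gave 1 pair higher in DM (3.01 to 5.32). The log2 ratios of DM over GM lay between −0.12 for CDH15 and 0.42 for the CDH2 pair that began in exon 14 in GM, and the median over all pairs was 0.07. The 2 genes called higher by RNA did not share a direction in the bases under peaks: these were 959 in GM and 1704 in DM for JAM2, and 1948 in GM and 780 in DM for BOC.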

How the data were processed

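Poly(A) RNA was fragmented, and input and m6A immunoprecipitated libraries were made strand-specific with the dUTP method. The deposited gene table holds FPKM of the 6 input libraries, which the authors computed with StringTie from HISAT2 alignments to ARS-UCD1.2. Its low values are not multiples of a fixed step, so whole reads could not be recovered and the depth of a value is unknown here; its precision is the spread of 3 libraries per group. The deposited peak lists give fold enrichment, a ratio of IP over input, and log10 of the false discovery rate, both as the authors obtained them with exomePeak on pooled libraries, annotated with ChIPseeker. The columns of p-values were not used here.

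Differences in FPKM were fitted with limma 3.58.1 under R 4.3.3 (variance trend, group only) on log2(FPKM + 1) at a mean of at least 0.5 FPKM; no counts were used, so the count model of the study's methods was not run. Peaks were paired in Python 3.11.15 with pandas 2.3.3 by at least 1 shared base of exon blocks on 1 strand, and plots were drawn with matplotlib 3.10.9. All 9 members are named, with the called genes of each pathway list and up to 3 genes most like a member. The members and lists were chosen with earlier results of these data known. Scripts were tested on simulated data. Gene symbols matched RefSeq for 9 of 9 members. Sequences are not shown, since no genome of this build was used. Per-sample values of the IP libraries were not analysed here.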

Additional observations from a re-analysis of the deposited data

How the results depend on the processing

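Alternatives covered the pseudocount, the filter, TPM, size factors, a replicate block, the variance trend, a fold change of 2, each library left out, stricter peaks (false discovery rate or fold enrichment), a stricter overlap, a ratio over 2 and centred ratios. BOC, JAM2, CDON and NEO1 kept their direction and an adjusted p under 0.05 in all 13 limma alternatives; their log2 fold changes lay between 1.12 and 1.59, 0.88 and 1.07, −0.91 and −0.68, and 0.29 and 0.43. Whether the same numbers in GM and DM mark paired libraries is unknown here. The deviations from the group means correlated at −0.08, −0.12 and −0.21, and 0 of 3 GM libraries correlated best with its own number. With 3 libraries per group these values cannot exclude a pairing. With the replicate block, 603 genes were called higher and 856 lower, against 602 and 846 without it. TPM shifted the median over all tested genes, on the log2 scale, from −0.05 to 0.06 and size factors shifted it to 0.00, and the share of higher genes among those called went from 41.6% to 55.5% with TPM and 48.9% with size factors. Relative to the median of all genes, CDH15 was at −0.20 before and −0.19 after TPM. With TPM 1 member instead of 2 fell. At a fold change over 2, 1 member was called higher and 0 lower, 3 pathway genes were called higher and 0 lower, and 504 instead of 1448 genes were called in all. The 3 pathway genes called lower were 5 with a pseudocount of 0.1, 1 with TPM and 1 with size factors, and the 8 called higher were 11, 12 and 9 there. The genes called lower numbered between 1 (without GM replicate 3) and 4 with a library left out. CDH2 lay between −0.0077 (reversed, without GM replicate 3) and 0.064 (without GM replicate 2) with a library left out. Requiring 50% of each peak to be shared gave 1 member pair higher in DM, of NEO1 (3.01 to 5.32), instead of 0, and no other peak alternative put a member pair past its threshold. The cause of these changes was not tested. Peaks of pooled libraries have no replicate error, and a gene with a short model such as MYMX rests on few bases.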
